A study of Saccharomyces cerevisiae with 8 samples.

Results

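The genes described here are the autophagy genes of the budding yeast *Saccharomyces cerevisiae* whose current symbol is ATG followed by a number. They were chosen by name alone, and 37 genes of the R64 gene table carry such a symbol. Of these, 36 had a probe set that the platform annotation assigns to 1 gene, among 5656 genes with such a probe set. *ATG44*, a factor of mitochondrial fission during mitophagy, had none. Where a gene had several probe sets, the brightest stood for it. All 36 probe sets are of the class named as specific to 1 sequence.

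RNA came from strain 4073, for which no genotype is given, grown in YPD to mid-log phase. The 4 control arrays (controls 1 to 4) hold RNA of cells without drug. The 4 treated arrays (gentamicin 5 to 8) hold RNA of cells that had first been adapted to gentamicin, an aminoglycoside antibiotic, and that stayed in it throughout, at 500 µg/ml per the sample labels. The series' design text writes the dose in mg/ml, so its unit is not settled. Nothing states that the 4 samples of a group were separate cultures, so p-values measure the spread between these samples, which may be technical.

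Autophagy delivers cytoplasm and organelles to the vacuole, the lytic compartment of yeast, inside vesicles with a double membrane. A core machinery builds the vesicle: the Atg1 kinase complex starts it, Atg9 brings membrane, a phosphatidylinositol 3-kinase complex marks the site, and a pair of ubiquitin-like systems attach Atg8 to the lipid. Receptors add selectivity for mitochondria, peroxisomes, endoplasmic reticulum or glycogen. The cytoplasm-to-vacuole targeting (Cvt) pathway uses the same machinery in growing cells to carry a few vacuolar enzymes to their destination.

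With gentamicin, *ATG* transcripts were more often higher than lower. *ATG41* rose 2.75-fold, and the receptor genes of endoplasmic reticulum autophagy, *ATG40* and *ATG39*, rose 1.81-fold and 1.79-fold. The initiation genes *ATG1* and *ATG13*, the Cvt receptor gene *ATG19* and its paralog *ATG34* also rose. *ATG45*, the glycogen receptor gene, fell 1.69-fold, and *ATG11*, the scaffold gene of selective autophagy, fell 1.33-fold. The fall of *ATG11* was no longer called after quantile normalization.

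Signals are in arbitrary units, and differences are log2 gentamicin minus control. A gene was tested when its mean log2 signal was above the lowest 20% of genes, which held for 29 of the 36. A call is an adjusted p under 0.05 in limma over all 4524 tested genes. Of the 29, 11 were higher and 2 were lower, or 37.9% and 6.9%. Over all tested genes the shares were 15.5% higher and 31.3% lower. The groups did not overlap for 14 of the 29 (48.3%), against 44.8% of all tested genes, so that share lay near the background. The median log2 difference was 0.15 for the 29 genes and -0.12 for all tested genes, a distance of 0.28. Without gentamicin 5 the *ATG* median was 0.2967. In all, 25 of the 29 lay above the median of all tested genes.

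The arrays are scaled to a common mean, so a signal is a share of the labelled RNA, and in RNA of a whole culture fewer cells with a transcript and less of it per cell cannot be told apart. The scaling also moved the split of calls among all tested genes, so that their lean to lower signals was not kept. With quantile normalization 18.9% of them were higher and 19.8% lower, and the *ATG* calls were 12 higher and 1 lower. With aligned array medians 23.9% were higher and 17.7% lower, and the *ATG* calls were 14 higher and 2 lower. At an adjusted p under 0.01, with the signals as deposited, 10.8% were higher and 20.2% lower, and the *ATG* calls were 8 higher and 2 lower. The median of the *ATG* genes lay 0.32 and 0.28 above that of all tested genes under these scalings. The median over the 29 genes of log2 signal, relative to the control mean, was 0.16, 0.27, 0.21 and 0.22 on gentamicin 5 to 8, and between -0.02 and 0.05 on the controls. The median spread within groups (SD of log2 signal) was 0.136 for the *ATG* genes and 0.141 for all tested genes.

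**Figure D1:**
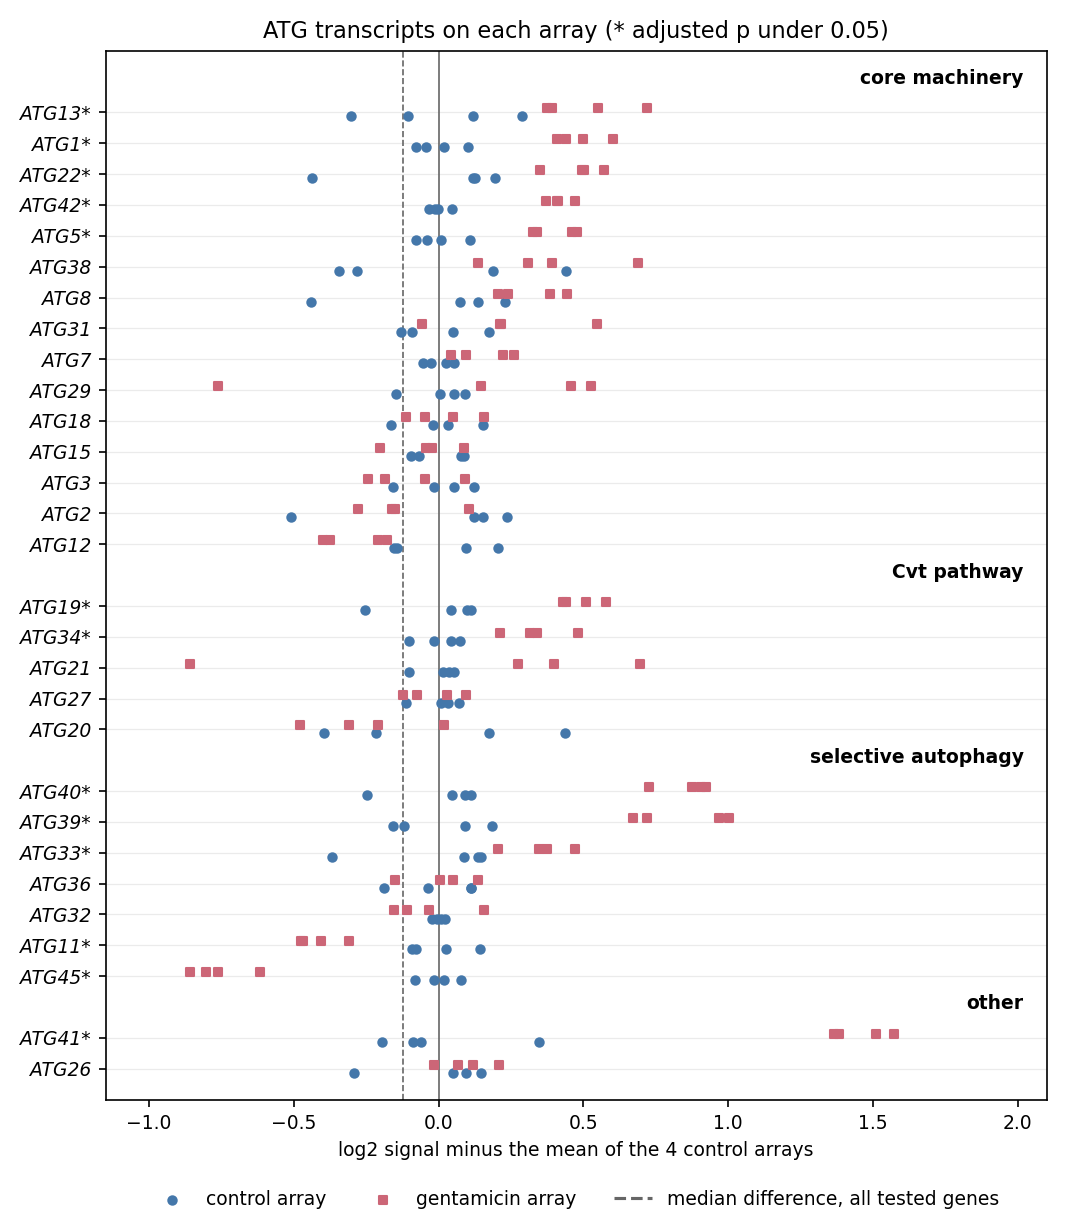
Each row is 1 of the 29 tested *ATG* genes, grouped by role. Points show log2 signal on each of the 4 control (circles) and 4 gentamicin (squares) arrays, relative to the control mean of the gene. The dashed line is the median difference of all 4524 tested genes (-0.12), and asterisks mark the 13 called genes. *ATG41* lies farthest to the right and *ATG45* farthest to the left of the called genes, and gentamicin 5 stands far below the other treated arrays for *ATG21* and *ATG29*.

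The role classes were set from the known functions of the genes, with earlier results of these data known. The core machinery had 21 measured and 15 tested genes, of which 5 (33.3%) were higher and none was lower, with a median of 0.23. The Cvt class had 6 measured and 5 tested genes, of which 2 were higher and none was lower, with a median of 0.13. *ATG11*, the scaffold that joins receptors to the Atg1 complex, was called lower and was counted in the selective class only. The absence of lower calls in the Cvt class thus depends on that placement. The 7 genes of selective autophagy were all tested, and 3 were higher and 2 lower (42.9% and 28.6%), with a median of 0.01. Over all tested genes 15.5% were higher and 31.3% lower, so the lower share of the selective class lay near the background. After quantile normalization 7 core genes were higher and none was lower, and with aligned medians 8 and none. The Cvt calls were 2 higher and none lower under both, with medians of 0.3065 and 0.2737, and the Cvt median was 0.0547 with no filter. The selective calls were 2 higher and 1 lower after quantile normalization and 3 and 2 with aligned medians. Differences of the selective class ran from -0.76 to 0.86. Its median lay 0.13 above that of all tested genes (-0.12), and 5 of its 7 genes lay above that value. With 1 array left out, the Cvt median, over 5 genes, ran from 0.0006 (without gentamicin 7) to 0.2892 (without gentamicin 5), and the selective median from -0.0276 (without control 2) to 0.0642 (without gentamicin 7). Whether the classes differ from each other was not tested. *ATG41* and *ATG26* were placed in no class.

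*ATG41* encodes a protein that binds Atg9 and acts in vesicle formation. It is known as a gene whose transcription Gcn4, the activator of amino acid synthesis genes, can induce. Its signal was 863.4, 930.0, 1256.9 and 948.3 on controls 1 to 4 and 2820.2, 2944.5, 2576.7 and 2545.8 on gentamicin 5 to 8. Every treated value was above the highest control value. The log2 difference was 1.46 ± 0.12 (SE, n = 4 per group; limma adjusted p = 2.45e-05), the largest of the 29 genes in either direction. *GCN4* itself, named for this role and not by the rule for names, averaged 17613 ± 787 (SD, n = 4) on the controls and 19253 ± 724 on the treated arrays. The groups of *GCN4* did not overlap (highest control 18519.2, lowest treated 18670.3). With the signals as deposited the difference was not called (log2 difference 0.13, limma adjusted p = 0.0711). Translation, at which *GCN4* is mainly controlled, is not measured by these arrays. *ATG26*, a sterol glucosyltransferase that acts in peroxisome autophagy of *Komagataella* yeasts, went from 997 ± 129 to 1060 ± 69.3 and was not called.

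Of the genes of the Atg1 kinase complex, 2 of 4 tested were higher and none was lower (background 15.5% higher and 31.3% lower). *ATG1*, the kinase that starts vesicle formation, had 535.8, 559.1, 592.6 and 523.6 on the controls and 837.7, 780.5, 732.4 and 749.3 on the gentamicin arrays. These groups were fully separate, and *ATG1* rose 1.40-fold (log2 difference 0.49 ± 0.08 (SE), limma adjusted p = 0.000822). *ATG13*, the regulatory subunit through which the nutrient kinase TORC1 acts on Atg1, had 614.9, 824.9, 705.7 and 926.8 on the controls. It had 982.9, 996.5, 1251.0 and 1111.2 with gentamicin. The controls scattered widely but stayed below all treated values, and *ATG13* rose 1.42-fold (0.51 ± 0.14 (SE), limma adjusted p = 0.0129).

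The scaffold of this complex in starved cells is made of Atg17, Atg29 and Atg31. *ATG31* averaged 412 ± 40.3 on the controls and 487 ± 85.0 on the treated arrays, with overlapping values. It was not called (limma adjusted p = 0.182), but was called after quantile normalization (0.0141) and with aligned medians (0.0441). *ATG29* had values of 189.5 to 223.6 in controls and of 123.8, 302.1, 288.1 and 232.2 with gentamicin. Gentamicin 5 was the lowest of all 8 arrays for this gene and the other treated arrays were the highest. It was not called (limma adjusted p = 0.794), and without gentamicin 5 its log2 difference was 0.38 (limma adjusted p = 0.0347). *ATG17* was below the filter, at 117 ± 8.37 and 129 ± 16.6.

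Among the *ATG* genes of membrane supply and of the lipid kinase complex, none of the 3 tested was called (background 15.5% higher and 31.3% lower). *ATG9*, the membrane protein of the vesicles that seed the structure, was below the filter with 225.6, 173.6, 168.5 and 170.0 in controls and 195.2, 191.7, 155.9 and 182.8 with gentamicin. The values of both groups were interleaved. *ATG2*, a lipid transfer protein, had 261.5, 405.2, 413.8 and 438.6 in controls and 307.0, 333.3, 401.0 and 335.7 with gentamicin. Those groups overlapped (limma adjusted p = 0.584). *ATG18*, its partner that binds phosphoinositides, went from 797 ± 72.4 to 803 ± 66.4. *ATG38*, a linker subunit of the kinase complex, had 1418.1, 1191.0, 824.7 and 860.3 in controls and 1296.7, 1684.7, 1148.5 and 1374.1 with gentamicin. Controls 1 and 2 lay within the treated range and controls 3 and 4 below it. It was not called (limma adjusted p = 0.123), except without control 1 (log2 difference 0.53, limma adjusted p = 0.0294). *ATG14*, the subunit that directs this complex to autophagy, was at or under 68.5 on all 8 arrays. The brightest probe set whose target is not in the sample reached 89.5, and *ATG14* did not pass that limit. The limit rests on 1 antisense probe set (49.3 to 89.5), and all other such probe sets gave at most 37.02 on any array. A change in *ATG14* was not resolved.

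The conjugation genes did not move as 1 block. *ATG8*, the ubiquitin-like protein that coats the membrane, had 3570.8, 3416.4, 2394.3 and 3803.5 in controls and 4243.3, 3744.8, 4414.9 and 3835.8 with gentamicin. Control 3 lay far below the others, and control 4 lay within the treated range. The log2 difference was 0.32 ± 0.14 (SE), and it was not called (limma adjusted p = 0.085). It was called with aligned array medians (log2 difference 0.47, limma adjusted p = 0.027), and without control 3 it was 0.17 and not called. *ATG7*, the enzyme that activates both ubiquitin-like proteins, went from 359 ± 11.9 to 401 ± 28.6. It was not called (limma adjusted p = 0.143), but was after quantile normalization (0.0072), with aligned medians (0.0198) and with array weights (0.0397). *ATG3*, which passes Atg8 to the lipid, went from 845 ± 69.0 to 792 ± 83.3 (limma adjusted p = 0.448).

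*ATG5* and *ATG12* encode the partners of 1 conjugate. *ATG5* had 1045.0, 974.7, 944.4 and 919.7 in controls and 1227.5, 1349.1, 1215.4 and 1334.2 with gentamicin. It rose 1.32-fold (0.40 ± 0.07 (SE), limma adjusted p = 0.00165) with separate groups. *ATG12* had 330.3, 279.9, 277.7 and 356.3 in controls and 234.7, 273.2, 267.4 and 238.5 with gentamicin. Its groups were also separate but in the other direction, with a log2 difference of -0.29 ± 0.11 (SE) that was not called (limma adjusted p = 0.0555). It was called without the variance trend (0.0426), with array weights (0.0466) and without control 3 (0.0463). The log2 ratio of *ATG5* to *ATG12* within an array does not depend on the scaling by a constant. It was 0.69 higher with gentamicin, with SDs of 0.196 in controls and 0.127 with gentamicin and no overlap. The pair was set side by side after its values were seen, so this is a description with no test.

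The other conjugation genes were dim and below the filter. *ATG10*, the enzyme that joins Atg12 to Atg5, had 71.2, 101.7, 68.3 and 76.0 in controls and 162.5, 137.8, 182.3 and 151.8 with gentamicin. The treated values lay above all controls, of which 3 were no brighter than the brightest probe set without a target (89.5). How large the difference is was therefore not resolved. In a fit with no filter, over 5656 genes of which 13.2% were higher, *ATG10* was higher (limma adjusted p = 0.000843). *ATG4*, the protease that prepares and releases Atg8, had 134 ± 19.7 in controls and 169 ± 18.2 with gentamicin. *ATG16*, which completes the Atg12–Atg5 complex, had 116 ± 22.8 and 91.2 ± 8.29, with 3 of its 8 values under the limit of 89.5. Neither was called without a filter (limma adjusted p = 0.0691 and 0.13), nor were *ATG9*, *ATG14*, *ATG17* and *ATG23*.

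Genes of the last steps in the vacuole were higher for 2 of 3 (66.7%, against 15.5% of all tested genes). *ATG42*, a vacuolar serine carboxypeptidase, had 2041.4, 2159.0, 2086.4 and 2070.3 in controls and 2774.0, 2781.7, 2897.9 and 2704.1 with gentamicin. The groups were far apart relative to their scatter, and *ATG42* rose 1.34-fold (0.42 ± 0.05 (SE), limma adjusted p = 0.000303). *ATG22*, which exports amino acids from the vacuole, had 889.9, 1307.7, 1313.0 and 1377.4 in controls and 1535.6, 1699.4, 1703.9 and 1787.7 with gentamicin. It rose 1.39-fold (limma adjusted p = 0.0167). Control 1 was low for this gene, and without it the log2 difference was 0.33 and the gene was still called (limma adjusted p = 0.00618). *ATG15*, the lipase that opens the delivered vesicle, went from 1534 ± 101 to 1488 ± 121 (limma adjusted p = 0.672). Its 3 probe sets gave log2 differences of -0.05, -0.05 and -0.06.

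**Figure D2:**
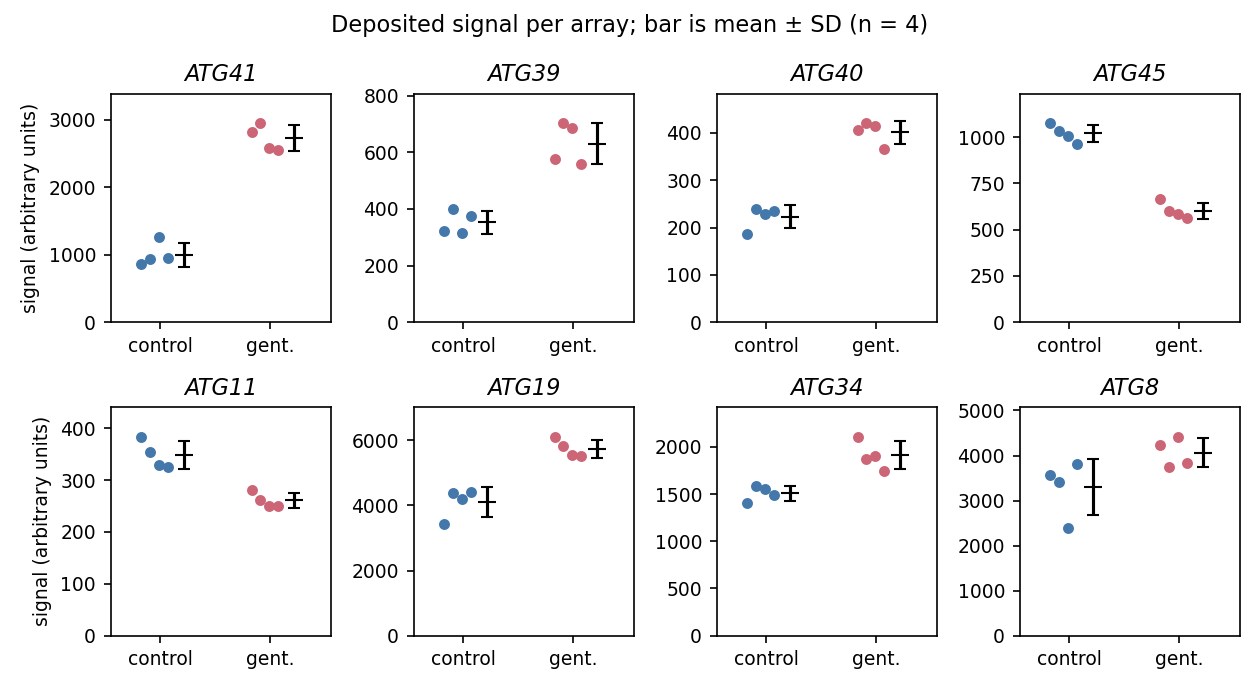
Each panel gives the deposited signal (arbitrary units, linear axis from 0) of 1 *ATG* gene on the 4 control and 4 gentamicin arrays, with the mean and SD beside the points. The groups are separate in all panels but that of *ATG8*. *ATG41*, *ATG39*, *ATG40*, *ATG19* and *ATG34* are higher with gentamicin, and *ATG45* and *ATG11* lower.

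In the Cvt class, the receptor gene *ATG19* and its paralog *ATG34* rose, while the sorting genes gave no calls. *ATG19*, the receptor that carries aminopeptidase I and alpha-mannosidase to the vacuole, had 3431.3, 4378.9, 4208.9 and 4413.0 in controls. It had 6104.3, 5813.6, 5538.3 and 5502.1 with gentamicin, all above the controls, and rose 1.40-fold (0.49 ± 0.09 (SE), limma adjusted p = 0.00175). A further probe set of *ATG19* gave at most 41.3 on any array, no brighter than the brightest probe set without a target (89.5), and carries no level. When the median over both probe sets was used the log2 difference was 0.90 and the call was lost (limma adjusted p = 0.0896). *ATG34*, a paralog that carries alpha-mannosidase in starved cells, had 1405.0, 1588.4, 1553.7 and 1493.5 in controls and 2107.8, 1877.5, 1908.0 and 1748.4 with gentamicin. It rose 1.26-fold (0.34 ± 0.08 (SE), limma adjusted p = 0.00562), with separate groups.

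*ATG34* and *ATG19* are direct neighbours on chromosome XV in the R64 gene table, and they were the only neighbouring pair among the tested members. The next gene after *ATG19* is *IRA2*, a negative regulator of Ras, which was higher as well (log2 difference 0.69, limma adjusted p = 0.00158). The place of *IRA2* was looked up after the values were seen. A called neighbour was not particular to this stretch. Among the members called higher, *ATG1*, *ATG13* and *ATG40* also lay beside a gene called higher, and *ATG5* and *ATG41* beside genes called lower. Of the members not called, *ATG12*, *ATG15* and *ATG18* lay beside a gene called higher. *ATG11*, *ATG2*, *ATG7*, *ATG15*, *ATG20*, *ATG21*, *ATG27*, *ATG32* and *ATG38* lay beside a gene called lower.

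*ATG21*, which brings the conjugation machinery to the membrane, had 583.0 to 649.9 in controls and 345.5, 757.8, 1015.5 and 825.4 with gentamicin. Gentamicin 5 was again below all controls and the other 3 above them. It was not called (limma adjusted p = 0.739), and without gentamicin 5 its log2 difference was 0.46 (limma adjusted p = 0.00979). *ATG20*, a sorting nexin, had 370.0, 308.8, 235.5 and 207.6 in controls and 196.4, 277.0, 220.8 and 236.5 with gentamicin, with overlap (limma adjusted p = 0.316). *ATG27*, a membrane protein of Atg9 traffic, went from 1340 ± 71.3 to 1324 ± 90.7 (limma adjusted p = 0.859). *ATG23*, which acts beside it, was below the filter at 174 ± 10.6 and 149 ± 21.6.

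Among the receptors of selective autophagy, those of the endoplasmic reticulum rose. *ATG39*, the receptor of the nuclear envelope and perinuclear reticulum, had 322.6, 398.7, 314.8 and 373.6 in controls and 577.5, 702.6, 686.2 and 558.2 with gentamicin. The log2 difference was 0.84 ± 0.11 (SE; limma adjusted p = 0.0004). *ATG40*, the receptor of the cortical and cytoplasmic reticulum, had 186.4, 239.1, 228.7 and 235.5 in controls and 405.8, 420.3, 414.7 and 366.0 with gentamicin. The log2 difference was 0.86 ± 0.10 (SE; limma adjusted p = 0.000194). For both genes the lowest treated value was well above the highest control.

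The receptor genes for mitochondria and peroxisomes gave no calls. *ATG32*, the mitophagy receptor, had 758.3, 772.5, 765.6 and 748.6 in controls and 847.7, 684.6, 743.9 and 706.2 with gentamicin. The treated values spread to both sides of the narrow controls (limma adjusted p = 0.749). *ATG36*, the pexophagy receptor, went from 638 ± 61.7 to 642 ± 52.7 (limma adjusted p = 0.939). Within arrays, the log2 ratio of *ATG39* to *ATG32* was 0.87 higher and that of *ATG40* to *ATG32* was 0.89 higher with gentamicin, both without overlap. These pairs were also chosen after the values were seen and were not tested. *ATG33*, a mitochondrial outer membrane protein of mitophagy, had 2641.6, 3623.1, 3773.0 and 3744.2 in controls and 3929.2, 4333.6, 4720.7 and 4420.1 with gentamicin. Control 1 was low, and the groups were otherwise close (log2 difference 0.35 ± 0.12 (SE), limma adjusted p = 0.0376). The call on *ATG33* was lost after quantile normalization (limma adjusted p = 0.0798). It was also lost without control 2 (0.0547) and without gentamicin 6 (0.0669), 7 (0.0909) or 8 (0.0797).

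The 2 genes that fell were *ATG45* and *ATG11*. *ATG45* encodes the receptor that links glycogen to Atg8. Its signal was 1074.5, 1032.5, 1008.0 and 963.2 in controls and 663.8, 601.3, 583.6 and 561.4 with gentamicin, with a wide gap between the groups. The log2 difference was -0.76 ± 0.08 (SE; limma adjusted p = 7.18e-05), and -0.61 after quantile normalization, where it was still called. *ATG11*, the scaffold that joins receptors to the Atg1 complex, had 383.3, 353.2, 329.1 and 326.0 in controls and 280.2, 262.2, 250.9 and 249.7 with gentamicin. All treated values were lower, and the log2 difference was -0.41 ± 0.09 (SE; limma adjusted p = 0.00422). After quantile normalization it was -0.16 and no longer called (limma adjusted p = 0.244). The log2 ratio of *ATG19* to *ATG11* within arrays was 0.90 higher with gentamicin, again without overlap and without a test.

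**Figure D3:**
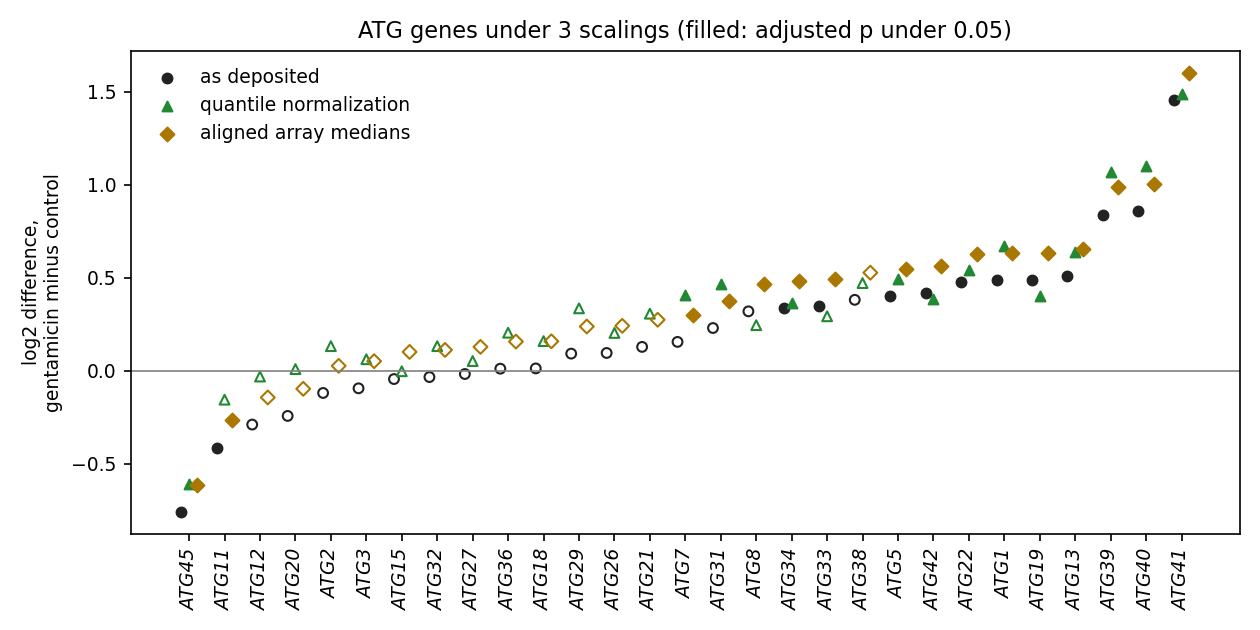
The vertical axis gives the log2 difference, gentamicin minus control, of the 29 tested *ATG* genes with the signals as deposited (circles), after quantile normalization (triangles) and with aligned array medians (diamonds). Filled symbols have an adjusted p under 0.05. *ATG41*, *ATG40*, *ATG39* and *ATG45* are called under each of these scalings, while *ATG11* is not called after quantile normalization (-0.16).

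Partners of the *ATG* genes that carry other symbols were taken from lists by role, chosen with earlier results of these data known. Of the 58 listed genes, 57 had a probe set. Of the 52 tested, 7 were higher and 13 lower, or 13.5% and 25.0%, against 15.5% and 31.3% of all tested genes, with a median of -0.11. After quantile normalization 8 were higher and 6 lower, and with aligned medians 12 and 5, so no direction is given for these genes as a whole. Cargo of the Cvt pathway was higher for 2 of 4 and lower for none. *APE1*, aminopeptidase I, had 7247.8, 8470.5, 8664.3 and 8162.2 in controls and 13361.0, 13220.7, 12161.5 and 13335.6 with gentamicin (log2 difference 0.68, limma adjusted p = 7.18e-05). *AMS1*, alpha-mannosidase, went from 1808 ± 121 to 2842 ± 212 (log2 difference 0.65, limma adjusted p = 0.000178). For both the groups were separate. *APE4*, an aspartyl aminopeptidase, had 688.2 on control 3 against 1969.1 to 1996.5 on the other controls and was not called (limma adjusted p = 0.28). *LAP3*, a cysteine protease, was not called either (0.46).

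The partners of *ATG14* and *ATG38* in the phosphatidylinositol 3-kinase complex were lower for 2 of 3 (66.7%, against 31.3% of all tested genes). *VPS15*, the regulatory kinase subunit, had 692.6, 510.3, 664.1 and 470.6 in controls and 331.6, 399.3, 412.7 and 382.1 with gentamicin (log2 difference -0.60, limma adjusted p = 0.00691). *VPS30*, once named ATG6, went from 735 ± 53.4 to 618 ± 39.6 (-0.25, limma adjusted p = 0.0341). Both calls were lost after quantile normalization (0.0715 and 0.599). That on *VPS30* was also lost with aligned medians (0.354) and without control 1 (0.07), 3 (0.0911) or 4 (0.0517) or gentamicin 6 (0.051) or 8 (0.095). *VPS34*, the catalytic subunit, was not called (0.169).

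Kinases and complexes upstream of autophagy were lower for 6 of 13 and higher for 1 (46.2% and 7.69%, background 31.3% and 15.5%). *KOG1* and *TCO89*, subunits of TORC1, which holds autophagy off in rich medium, went from 964 ± 79.0 to 655 ± 33.0 and from 1371 ± 27.5 to 1019 ± 88.5 (limma adjusted p = 0.000573 and 0.00146). *SCH9*, a kinase that TORC1 activates, had 1491 ± 207 and 1035 ± 85.5 (0.00405). The other lower genes were *NPR3*, a subunit of a complex that restrains TORC1 (0.00888), *RIM15*, a kinase of the entry into quiescence (0.0143), and *TAP42*, a phosphatase regulator downstream of TORC1 (0.0173). The list thus held lower genes that act for TORC1 and against it. The higher gene was *TPK2*, a catalytic subunit of protein kinase A, which also restrains autophagy, from 2038 ± 195 to 2626 ± 132 (0.00491). *TPK3*, another such subunit, was below the filter, with 242 ± 14.2 in controls and 168 ± 19.4 with gentamicin and separate groups. After quantile normalization 3 of the 13 were lower and 1 was higher, and with aligned medians 4 and 1. These transcript levels do not measure kinase activity.

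Among 12 transcription and RNA decay factors that act on *ATG* genes, none was higher and 1 was lower (8.33%, background 31.3%). It was *RPD3*, a histone deacetylase that works with Ume6 to repress *ATG8*, and its groups overlapped (log2 difference -0.36, limma adjusted p = 0.0391). This call was lost with either other scaling (0.18 and 0.207) and without control 1 (0.0791), 2 (0.0736) or 3 (0.0888) or gentamicin 7 (0.0764) or 8 (0.0915). With aligned medians 3 of the 12 were higher and none lower, so no direction is given for this list. *UME6* itself was below the filter, at 202 in controls and 204 with gentamicin.

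Of the 11 tested membrane traffic genes with a part in autophagy, 2 had a higher call (18.2%, background 15.5%). A lower call was given to 1 (9.09%, background 31.3%). The share with higher calls was therefore close to the background. After quantile normalization there were 3 higher calls (background 18.9%) and 1 lower call (background 19.8%). Aligned medians gave 4 higher calls (background 23.9%) and no lower call (background 17.7%). *VAC8*, a vacuolar membrane protein that helps to anchor the site of vesicle formation, rose 1.36-fold, from 707 ± 39.2 to 963 ± 34.2 (limma adjusted p = 0.000823). *VPS13*, a lipid transfer protein related to Atg2, rose 1.30-fold (0.00948). *SNX41*, a sorting nexin, had a log2 difference of -0.33 (0.017), a call lost after quantile normalization (0.392), with aligned medians (0.148) and without control 2 (0.0526). *SNX4*, once named ATG24, was not called (log2 difference 0.29, limma adjusted p = 0.0752).

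Of 9 genes of vacuolar fusion and lysis, 2 were higher and 3 were lower (22.2% and 33.3%, background 15.5% and 31.3%). The lower share thus lay near that of all tested genes. The higher ones were proteases: *PRB1*, protease B, went from 7251 ± 338 to 9912 ± 470 (limma adjusted p = 0.000284). *PEP4*, protease A, rose 1.23-fold (0.00525), a call lost after quantile normalization (0.221). The lower ones act in fusion, and among them *YKT6*, a SNARE protein, had a log2 difference of -0.50 (0.0114), which was not called with aligned medians (0.058). With aligned medians none of the 9 was lower.

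**Figure D4:**
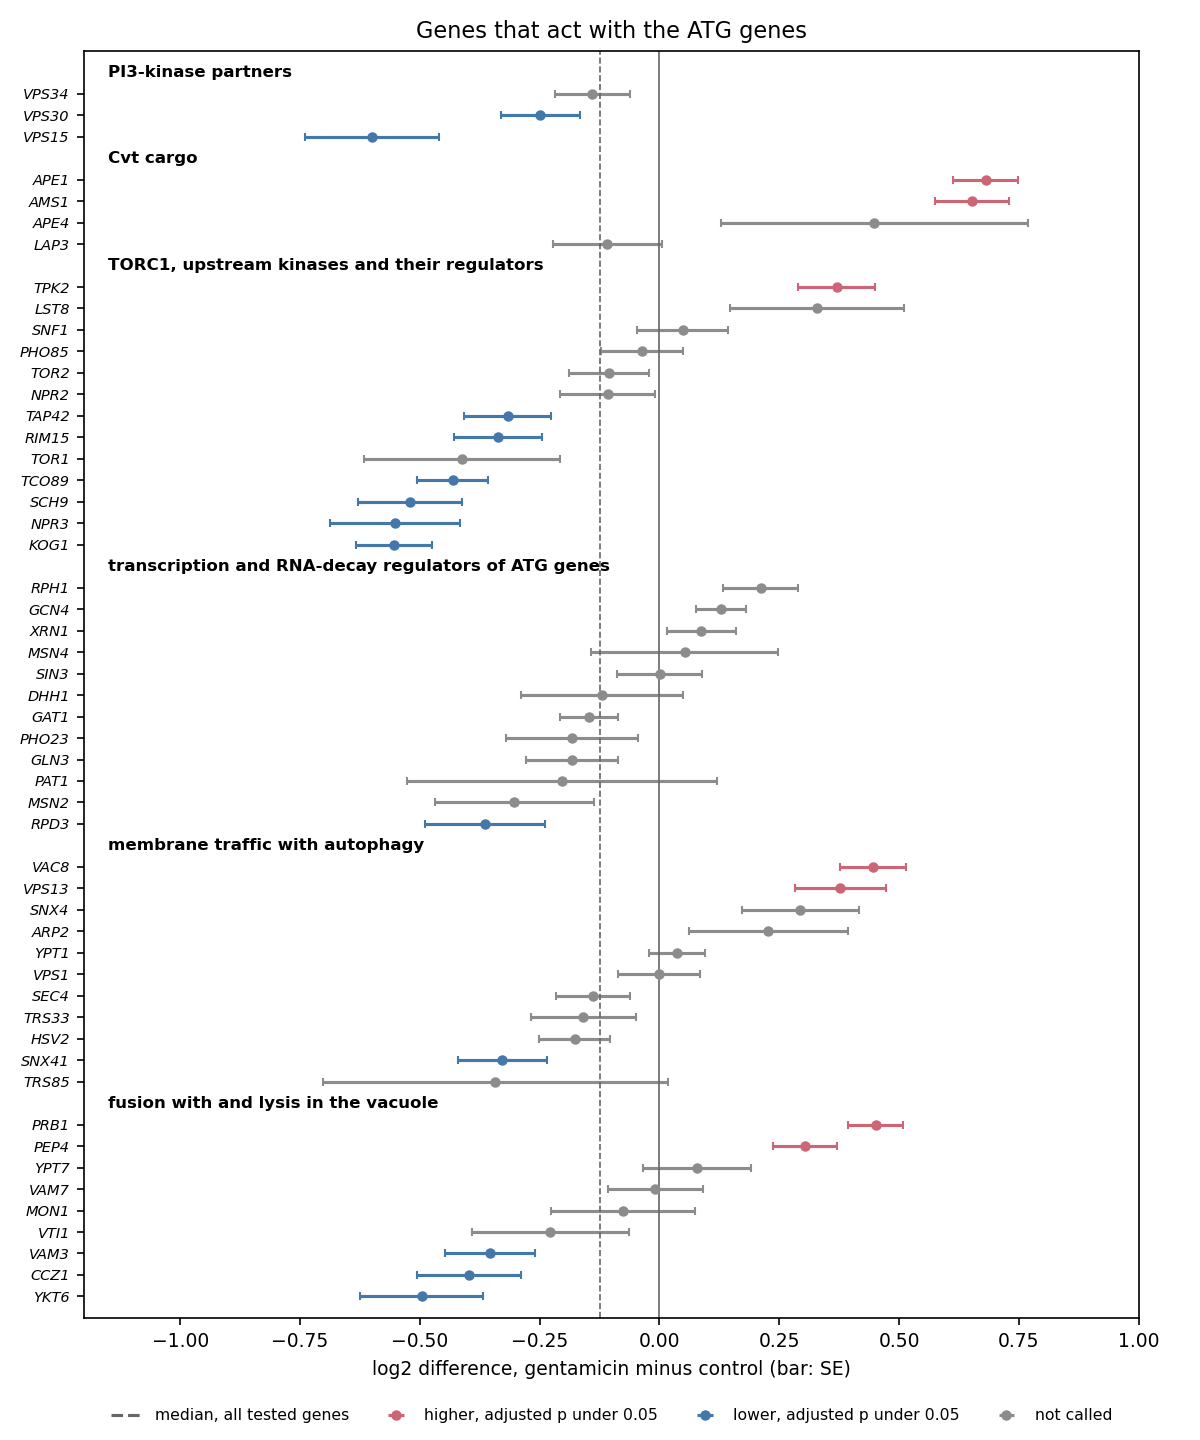
Points give the log2 difference, gentamicin minus control, of the 52 tested genes that act with the *ATG* genes, by list, with the SE as bars. Colours mark genes called higher (7), called lower (13) or not called (32), and the dashed line is the median of all tested genes (-0.12). *APE1* and *AMS1* lie farthest to the right, and *VPS15* farthest to the left.

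Markers of mating type moved with the drug beside these results. All 4 alpha cell markers were measured and called lower, and their summed signal was 30998 to 32905 in controls and 15251 to 16361 with gentamicin. For 6 a cell markers, of which *MFA1* alone passed the filter and was lower, the sum was 1242 to 1437 and 569 to 737. For 7 sporulation markers, of which *IME1* alone passed the filter and was not called, the sum was 771 to 952 and 672 to 830. *MFA1* alone went from 727 ± 89.7 to 164 ± 56.0, so the a cell sum leans on 1 gene. *STE2*, *AGA2*, *SPO11*, *SPS1*, *SPS2*, *SPS4* and *DIT1* did not pass the brightest probe set without a target (89.5) on any of the 8 arrays. The part of the markers in the *ATG* differences was not tested.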

How the data were processed

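The authors deposited, for each array, 1 linear intensity a probe set, for which the submitters' processing notes name MAS5, without version or settings. Per the deposited file, 9335 probe sets on 8 arrays had values, all above 0, and the mean after trimming 2% at either end was 1000.6 to 1000.7 on each array. The genome build is not given in the sources used here, so no coordinates are printed. Arrays give no depth, and their number limits the precision.

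Probe sets were named through the platform annotation and the R64 gene table (6504 with 1 gene, all matched). Intensities were taken to log2 as they stood, and genes at or below the 20% point of mean log2 signal were left out. Gentamicin was compared with control by limma 3.58.1 in R 4.3.3 (lmFit, eBayes with a variance trend, two-sided), with Benjamini-Hochberg adjustment over 4524 genes. The fit was tested on simulated data. Replicate numbers differ between the groups, and the labels name no batch.

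Every *ATG* gene may be named. All arrays are given for called members, *ATG1*, *ATG8* and *ATG9*, and up to 2 others per role. Partners named are up to 3 called genes per list with the smallest adjusted p, and exceptions are *TPK2*, *TPK3*, *NPR3*, *RIM15*, *TAP42*, *GCN4*, *UME6*, *SNX4*, *VPS34*, *APE4*, *LAP3* and *IRA2*, chosen after their values were seen. The members and lists were chosen with earlier results of these data known. The range of absent transcripts comes from 16 array controls without target (mouse, tryptophan and antisense probe sets). Its upper end, 89.5, comes from 1 antisense probe set, and the others gave at most 37.02. The alternatives were 2 scalings, an offset of 8.17 before log2, no filter or a filter of 40%, a fit without the variance trend, weights per array, a median over the probe sets of a gene, each array left out, and an adjusted p under 0.01. Motif searches in promoters, planned with the design, were not run, since no sequences were used here.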

Additional observations from a re-analysis of the deposited data

Results flagged for a closer look

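Single arrays that stood apart from the other 3 of their group were looked for in the 29 tested *ATG* genes, with Dixon's test on log2 signal at the 95% level. Of 58 groups of 4 values, 3 passed it, and chance gives about 1 in 20. All 3 were low values of control 1. *ATG2* had 261.5 on control 1 against 405.2 to 438.6 on the other controls. *ATG22* had 889.9 on control 1 against 1307.7 to 1377.4. *ATG33* had 2641.6 on control 1 against 3623.1 to 3773.0. Without control 1, *ATG22* and *ATG33* were still called higher and *ATG2* was not called.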

How the results depend on the processing

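Of the 13 called *ATG* genes, 10 were called at an adjusted p under 0.05 in each of the 16 other fits that tested them, and *ATG11*, *ATG19* and *ATG33* lost the call in some. At an adjusted p under 0.01, *ATG13*, *ATG22* and *ATG33* were not called, which left 8 higher and 2 lower, and 8 genes passed both this threshold and every other fit that tested them. No called member changed sign, while 10 members that were not called did so at least once. Of the 16 members not called, 7 were called in some of these fits. Among all tested genes, aligned medians gave 1079 higher and 799 lower, quantile normalization 894 lower and an adjusted p under 0.01 915 lower. The *ATG* genes called lower numbered 1 after quantile normalization and 1 with the lowest 40% left out, where *ATG11* was not tested. The median difference of the *ATG* genes was 0.3065 after quantile normalization, 0.3006 with aligned medians and 0.3375 with the lowest 40% left out. Set against all tested genes it was 0.4154 with the lowest 40% left out. For the core genes the median was 0.3877, 0.3753 and 0.3908 under these settings, and 0.4687 above all tested genes with the lowest 40% left out. For the selective genes it was 0.2041 after quantile normalization and 0.1564 with aligned medians. With each array left out in turn, the *ATG* median ran from 0.1438 to 0.2967 and its distance from all tested genes from 0.263 to 0.4094. The core median ran from 0.1726 to 0.3251 and its distance from 0.2869 to 0.4378. The upper end of each range came without gentamicin 5. The cause of these shifts was not tested. No paired analysis was possible because the groups share no replicate numbers. For genes that passed the brightest probe set without a target (89.5) on no array, changes were not resolved.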
